A study of Mus musculus with 4 samples.

Results

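The Cd209 family of the mouse comprises 7 genes, Cd209a to Cd209g, and these 7 of the 27998 genes in the count table were followed here, selected by name. They encode C-type lectins, cell surface receptors that bind sugars such as mannose and fucose in a calcium-dependent way and are relatives of human DC-SIGN (CD209), through which human dendritic cells (DCs) take up pathogens. In mouse tissue, CD209a serves as a marker of monocyte-derived DCs and of some conventional DCs, whereas SIGNR1, the product of Cd209b, is best known from the macrophages of the splenic marginal zone, where it captures blood-borne polysaccharides. The product of Cd209d is called SIGNR3, that of Cd209c SIGNR2 and that of Cd209e SIGNR4.

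Both groups of the study consisted of CD11b+ splenocytes of C57BL/6 mice aged 8 to 12 weeks, and each group is 1 library without a replicate, aimed at 7000 cells. One library came from mice in the steady state, and the other from mice that had received subcutaneous GM-CSF (10 µg a day on 3 days) and were analysed 24 h after the last dose. CITE-seq read the RNA of each cell as unique molecular identifiers (UMIs, 1 per captured molecule) together with antibody tags for CD115, CD11c, Ly6C, MHC II and CD301b, a lectin whose gene is Mgl2. The authors set aside clusters of granulocytes, neutrophils, conventional DCs, B cells and T cells. They kept clusters with mixed traits of monocytes, macrophages and DCs, and 1 with markers of progenitor DCs. These are called here the MoMacDC bundle, with clusters numbered 0 to 16. Its CD115hi cells were divided into Ly6C+ classical monocytes (P-I), P-II, which are non-classical monocytes, P-III, called pre-GMiDCs, and P-IV, the CD301b+ GM-CSF-induced DCs (GMiDCs).

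The steady-state library held 4827 cells and 22358903 UMIs (median 3371 per cell), 2135 of the cells in the bundle at a median of 6894 UMIs. The GM-CSF-treated library held 6804 cells and 35007567 UMIs (median 4916), 3940 of the cells in the bundle at a median of 6654. Levels are given as UMIs of a gene per 1000000 UMIs of all cells in a group (CPM), and shares as cells with at least 1 UMI. As UMIs from the 3' end count molecules, levels of different genes were compared without scaling by length. All intervals are 95% intervals for counting error alone. They do not cover the spread between mice, which cannot be told apart from the treatment with 1 library each, and they are too narrow where a few cells hold many UMIs of a gene. No test between the libraries was made. Itgam, which encodes the CD11b used for sorting, was at 320 CPM in the steady-state bundle and 152 CPM in the GM-CSF-treated bundle.

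The 7 genes lie within a stretch of mouse chromosome 8 (GRCm38, GENCODE annotation) that does not hold any gene overlapping a member. Cd209a spans 3743397 to 3748984 on the minus strand, followed by Cd209e (3847965 to 3854309), Cd209d (3871824 to 3878555), Cd209b (3917655 to 3926844) and Cd209c (3940222 to 3954746), all on the same strand. Further along are Cd209f (4102787 to 4105835, minus strand) and Cd209g (4134098 to 4137707, plus strand). The transcripts of Cd209a to Cd209e did not share a single stretch of 90 bases with any other member in the same annotation. Cd209f and Cd209g had 499 stretches of 90 bases in common, none of them in the last 500 bases. Reads of this length from the 5 detected members would thus not be shared with another member. Other genes and the pseudogenes near the members were not compared.

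The 250 bases upstream of the RefSeq transcription start are shown for the members whose RNA was detected with a start near that of the gene annotation (GRCm38.p6, 5' to 3' on the strand of the gene), because these genes were found in the same cells. Capitals mark matches to the ETS core CCGGAA and to the PU.1 core, which was searched with the letters GAGGAA, as well as to the PU.1-IRF composite. Each motif was searched on both strands, and all matches in these 4 windows read as the reverse complement. Both cores end with the GGAA that begins the composite, so matches can overlap. The windows are chr8:3748985-3749234 for Cd209a, chr8:3926842-3927091 for Cd209b, chr8:3878500-3878749 for Cd209d and chr8:3854287-3854536 for Cd209e, all on the minus strand.
Cd209a: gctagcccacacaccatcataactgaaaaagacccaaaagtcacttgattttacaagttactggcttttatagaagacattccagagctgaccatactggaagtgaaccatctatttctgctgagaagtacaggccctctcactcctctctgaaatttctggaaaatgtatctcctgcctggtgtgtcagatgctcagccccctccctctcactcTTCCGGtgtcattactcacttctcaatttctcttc
Cd209b: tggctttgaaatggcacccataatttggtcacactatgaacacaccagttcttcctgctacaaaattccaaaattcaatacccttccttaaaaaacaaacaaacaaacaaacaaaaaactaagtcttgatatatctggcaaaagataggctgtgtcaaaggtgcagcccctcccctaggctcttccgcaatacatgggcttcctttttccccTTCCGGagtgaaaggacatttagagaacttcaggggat
Cd209d: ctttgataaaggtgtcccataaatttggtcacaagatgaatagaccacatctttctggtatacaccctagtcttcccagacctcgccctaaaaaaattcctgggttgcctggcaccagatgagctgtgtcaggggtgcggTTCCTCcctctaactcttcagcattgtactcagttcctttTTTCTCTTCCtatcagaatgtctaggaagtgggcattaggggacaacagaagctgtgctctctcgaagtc
Cd209e: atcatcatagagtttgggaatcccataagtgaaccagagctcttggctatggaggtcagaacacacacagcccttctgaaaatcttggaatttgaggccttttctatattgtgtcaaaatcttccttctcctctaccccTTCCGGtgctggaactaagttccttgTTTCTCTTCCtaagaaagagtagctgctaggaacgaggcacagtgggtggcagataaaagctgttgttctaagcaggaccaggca

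The ETS core was searched after the sequences had been seen. It began 35 bases before the start of Cd209a, 38 before that of Cd209b and 111 before that of Cd209e, and 12% of the 32851 RefSeq promoters of this length held it on either strand. The PU.1-IRF composite was found 70 bases before the start of Cd209d and 85 before that of Cd209e, against 2.30% of all promoters, and the PU.1 core 110 bases before that of Cd209d, against 23.3%. The STAT letters TTCNNNGAA (7.02% of all promoters) and the IRF motif (2.98%) were in none of the 7 windows, and the AP-1 letters TGANTCA (6.75%) were in those of Cd209f and Cd209g. Over the 250 bases, Cd209b was 54.6% identical to Cd209d, and Cd209a 41.8 to 46.4% identical to the other members. The ETS core was also in the windows of Cd209f and Cd209g. A match of letters is a description and does not show that a factor binds there.

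Cd209a was by far the most abundant member, with 7715 UMIs in 1595 of the 11631 cells of both libraries. Cd209d followed with 464 UMIs in 255 cells, Cd209b with 352 in 171 cells and Cd209c with 326 in 267 cells. Cd209e reached 34 UMIs in 28 cells, whereas Cd209f and Cd209g were at 0 in all cells. In the GM-CSF-treated bundle, a count of 0 allows up to 0.111 CPM, or 0.0761% of cells with a UMI, and in the steady-state bundle up to 0.201 CPM or 0.141% of cells. RNA of the 5 detected members was almost entirely in the bundle, which held 99.5% of the Cd209a UMIs, 99.4% of those of Cd209b, 98.8% of Cd209c, 98.1% of Cd209d and 100% of Cd209e. Clusters 0 and 3 alone accounted for 68.8% (Cd209a) to 80.4% (Cd209c) of the UMIs of the bundle.

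Cells that should lack these genes gave the background. Among neutrophils and granulocytes, 7 of 2075 cells in the steady state (0.337%, median depth 1792 UMIs) and 13 of 2684 after GM-CSF (0.484%, median depth 1590.5) had a Cd209a UMI, in no case more than 1. In the deeper cells labelled neutrophils, the shares were 1.37% (2 of 146 cells, median depth 6461.5) and 0.784% (7 of 893, median depth 4404). T cells had none, in 174 and 39 cells, which allows shares of up to 1.72% and 7.69%. Shares at or below about these values in other cells are at the background. Cd209b, Cd209c and Cd209d were found in at most 3 of the 2684 neutrophils and granulocytes.

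Among the cell types named by the authors, MoMacDC_c2 had the highest Cd209a level in either library. In the steady state, Cd209a was at 762 CPM there (719 to 806), with a UMI in 127 of 177 cells (71.8%, or 40.8% when each cell was thinned to 1000 UMIs). After GM-CSF it was at 503 CPM (488 to 517), in 938 of 1471 cells (63.8%, thinned 33.4%). In the steady state, the cells named progenitor DCs came next, at 148 CPM (47.4% of 152 cells). After GM-CSF they were at 94.9 CPM (30.3% of 393 cells), below MoMacDC_c4. In MoMacDC_c2 and in progenitor DCs the level was thus lower in the GM-CSF-treated library. The reverse order was seen in MoMacDC_c4, where Cd209a was at 8.90 CPM in the steady state (4 UMIs in 43 cells) and at 116 CPM after GM-CSF (21.0% of 595 cells), and in MoMacDC_c5, at 0.465 CPM (1 UMI in 486 cells) and 23.0 CPM (9 UMIs in 139 cells). In MoMacDC_c1 it was at 29.7 CPM (26.4 to 33.4) and 40.4 CPM (36.3 to 44.9).

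The other members were also highest in MoMacDC_c2, with Cd209d first in both libraries. Its interval was apart from those of Cd209b and Cd209c in the steady state and overlapped with both after GM-CSF. In the steady state, Cd209d was at 32.6 CPM (24.3 to 42.7), Cd209b at 8.77 CPM (4.79 to 14.7) and Cd209c at 6.26 CPM (3.0 to 11.5). After GM-CSF, Cd209d was at 35.0 CPM (31.3 to 39.0), Cd209c at 29.5 CPM (26.1 to 33.2) and Cd209b at 29.2 CPM (25.8 to 32.9). Cd209b and Cd209c could be told apart neither in the steady state nor after GM-CSF by their counting intervals. In cells labelled macrophages, Cd209b was not detected, in 25 and 22 cells, which are too few to show its absence. In the 22 GM-CSF-treated cells (median depth 1745 UMIs), a count of 0 allows up to 63.5 CPM or 13.6% of cells. Outside the bundle, B cells included 2 cells in each library with Cd209a, with up to 8 and 4 UMIs, and 1 steady-state B cell with 4 UMIs of Cd209d.

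**Figure D1:**
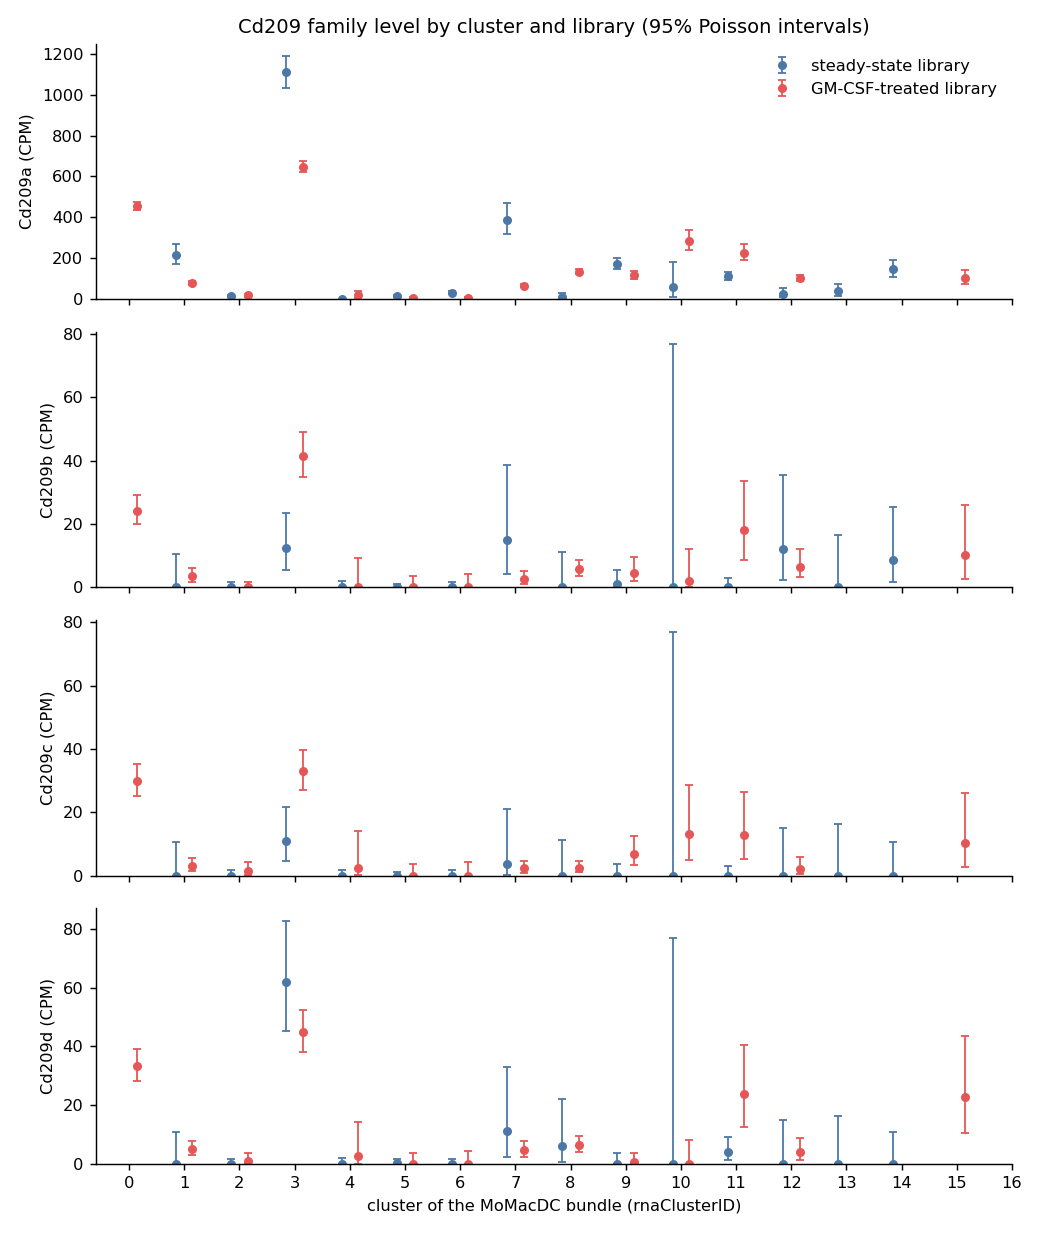
Levels of Cd209a, Cd209b, Cd209c and Cd209d (CPM, 1 panel per gene) in the clusters of the MoMacDC bundle, with the steady-state library in blue and the GM-CSF-treated library in red, points for the level and bars for the 95% Poisson interval. Only groups of at least 20 cells are drawn, so cluster 0 (14 cells in the steady state) has a GM-CSF point alone, and cluster 3 is the highest for all 4 genes in the GM-CSF-treated library.

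Within the bundle, clusters 3 and 0 stood at the top for Cd209a in the GM-CSF-treated library, at 647 CPM (620 to 674) in 77.7% of 512 cells and at 456 CPM (437 to 476) in 62.4% of 668 cells. Thinned to 1000 UMIs per cell, the shares were 42.4% and 30.1%. The next clusters in order were cluster 10 at 285 CPM (238 to 339), whose cells were shallow (median 1739.5 UMIs), and cluster 11 at 228 CPM (190 to 271). The intervals of these 2 neighbours overlapped, whereas those of clusters 3 and 0 were apart from each other and from all clusters of at least 20 cells below them. Clusters 8, 9, 15 and 12 lay between 104 and 136 CPM, clusters 1 and 7 at 78 and 67.0 CPM, and clusters 4, 2, 5 and 6 at 20.3, 19.1, 4.96 and 4.63 CPM.

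The steady-state library placed Cd209a in the same pair of clusters, but with few cells. In cluster 3 the level was 1109 CPM (1033 to 1188), in 90.9% of 88 cells (thinned 53.4%), and the 14 cells of cluster 0 held 162 UMIs. Cluster 7 was next at 389 CPM (317 to 471) in 31 cells, then cluster 1 at 217 CPM in 49 cells, cluster 9 at 173 CPM in 122 cells and cluster 14 at 148 CPM in 35 cells. A single cell of cluster 11 held 37 of that cluster's 145 Cd209a UMIs. Cells rich in Cd209a carried much of the signal in this library, as the 62 cells with at least 10 UMIs held 59.9% of all Cd209a UMIs of the bundle. After GM-CSF, 139 such cells held 30.5%.

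In cluster 3 after GM-CSF, Cd209d was at 44.8 CPM (37.9 to 52.5), Cd209b at 41.5 CPM (34.9 to 49.0), Cd209c at 33.0 CPM (27.1 to 39.7) and Cd209e at 4.42 CPM (2.47 to 7.28). In cluster 0 the same genes were at 33.2, 24.2, 29.8 and 2.59 CPM. Of the steady-state cells of cluster 3, 17 of 88 had Cd209d, at 61.9 CPM (45.1 to 82.8). Only 4 of them had Cd209b (9 UMIs, 12.4 CPM) and 6 had Cd209c (8 UMIs, 11.0 CPM), and Cd209e was at 0. Cd209d was thus the leading minor member of cluster 3 in the steady state, whereas after GM-CSF its interval overlapped with that of Cd209b. In cluster 11 after GM-CSF, Cd209d was at 23.7 CPM (13 UMIs) and Cd209b at 18.2 CPM (10 UMIs) in 77 cells, and no minor member exceeded 23.7 CPM in any other cluster of at least 20 cells of that library.

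Over the whole bundle, the Cd209a level was 113 CPM (108 to 118) in the steady state and 221 CPM (216 to 227) after GM-CSF, a ratio of 1.96 (1.86 to 2.07). The ratios of the minor members were larger. Cd209b was at 1.34 and 12.2 CPM (ratio 9.11, 5.80 to 15.1), Cd209c at 0.669 and 11.5 CPM (17.2, 9.24 to 36.3) and Cd209d at 3.81 and 14.7 CPM (3.85, 2.91 to 5.18). Of the 10860 genes with at least 50 UMIs, 8.66% were at least 2-fold higher. Cd209a fell just short of 2-fold, and Cd209b and Cd209c, with 20 and 10 steady-state UMIs, passed the minimum only through the GM-CSF-treated library, so no count of members is given. Cd209e had 2 UMIs in the steady state and 32 after GM-CSF (8.83, 2.25 to 76.1), under the minimum of 50. Without the cell that held the most UMIs of a gene in each library, the ratios of Cd209a, Cd209b, Cd209c and Cd209d were 1.99, 10.4, 21.3 and 4.30.

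The number of cells in clusters 0 and 3 moved with these ratios, from 102 of 2135 bundle cells (4.78%) in the steady state to 1180 of 3940 (29.9%) after GM-CSF. When the clusters of both libraries were given the same weights, by their cells over both libraries, the ratio of Cd209a turned to 0.55. Those of Cd209b, Cd209c and Cd209d fell to 3.45, 4.28 and 1.37 under the same weights. These weighted ratios have no interval. The 14 steady-state cells of cluster 0, with 162 Cd209a UMIs, enter them with the weight of the whole cluster. The sum over the bundle alone does not tell more cells of a cluster from more RNA per cell of that cluster. Within cluster 3, the Cd209a level was 1109 CPM in the steady state and 647 CPM after GM-CSF. The part of each in the bundle ratios was not tested.

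**Figure D2:**
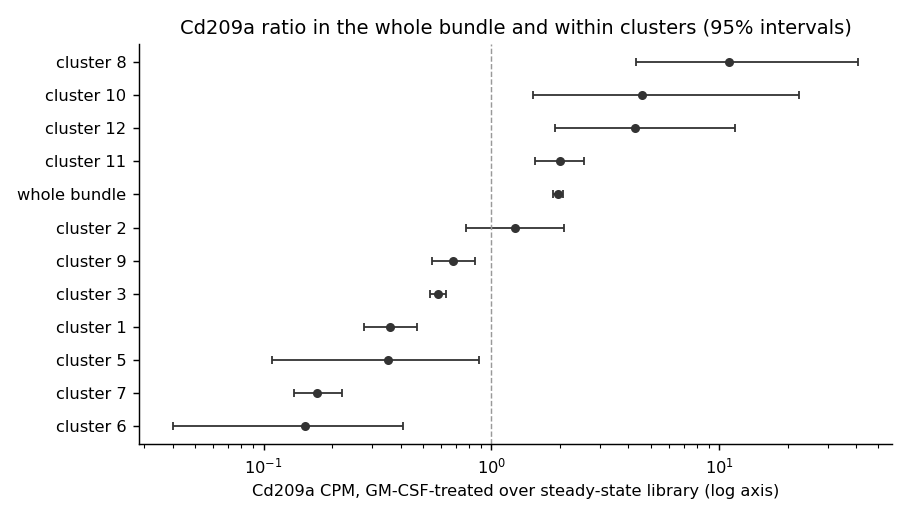
Ratio of the Cd209a level in the GM-CSF-treated library to that in the steady-state library (log axis) for the whole bundle and for each cluster with at least 20 cells in both libraries and at least 50 Cd209a UMIs, with points for the ratio and bars for 95% intervals. The dashed line marks equal levels, and the ratios run from 0.15 in cluster 6 to 11.1 in cluster 8, on both sides of the line. Clusters 6 and 8 each have only 4 Cd209a UMIs in the library with the lower level.

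Cluster by cluster, Cd209a was lower in the GM-CSF-treated library in cluster 3 (ratio 0.58, 0.54 to 0.63), cluster 9 (0.68, 0.55 to 0.85), cluster 1 (0.36, 0.28 to 0.47), cluster 5 (0.35, 0.11 to 0.88), cluster 7 (0.17, 0.14 to 0.22) and cluster 6 (0.15, 0.04 to 0.41). It was higher in cluster 11 (1.99, 1.56 to 2.55), cluster 12 (4.25, 1.91 to 11.8), cluster 10 (4.57, 1.53 to 22.5) and cluster 8 (11.1, 4.29 to 40.8), and the interval in cluster 2 (1.26, 0.77 to 2.08) included 1. The plot of ratios by cluster shows both directions side by side, with the whole bundle above 1. The steady-state cells of clusters 8 and 7 stood out by markers of natural killer cells: the 6 genes of that list summed to 10429 CPM in the 28 cells of cluster 8 and to 4468 CPM in the 31 cells of cluster 7, against 1.64 and 0.971 CPM after GM-CSF. In cluster 6, the classical monocyte markers summed to 8893 CPM in the steady state and 3823 CPM after GM-CSF, and the neutrophil markers to 355 and 3397 CPM. Their part in the Cd209a ratios of these clusters was not tested.

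In cluster 3, the only cluster with more than 50 steady-state cells and a Cd209a level above 200 CPM, the members diverged. Cd209b (ratio 3.35, 1.72 to 7.49) and Cd209c (3.0, 1.47 to 7.11) had higher levels after GM-CSF, but with 9 and 8 steady-state UMIs they passed the minimum of 50 only through the GM-CSF-treated cells, and no count is given. Of the 7043 genes tested in this cluster, 6.3% were at least 2-fold higher and 4.56% at least 2-fold lower. Cd209d (0.72, 0.52 to 1.03) had an interval that included 1, and Cd209a, at 0.58, did not reach 2-fold lower. Mgl2 was at 52.3 CPM in the steady-state cells and at 513 CPM in the GM-CSF-treated cells of cluster 3, and H2-Aa, which encodes a chain of MHC II, at 6821 and 6501 CPM. Other marker lists also moved between the cells of clusters 0 and 3. The DC progenitor markers summed to 1190 CPM in the steady state and 484 CPM after GM-CSF, the cDC2 markers to 450 and 164 CPM, the classical monocyte markers to 988 and 436 CPM and the non-classical monocyte markers to 599 and 146 CPM, whereas the monocyte-derived DC markers other than Cd209a were at 28908 and 26511 CPM and the marginal zone macrophage markers other than Cd209b were low, at 6.97 and 6.35 CPM. The monocyte-derived DC sum rested mostly on MHC II genes and Cd74. In the GM-CSF-treated bundle, Cd74, H2-Ab1 and H2-Aa were at 8789, 4633 and 4474 CPM, and the list's other genes at 470 CPM or less. Over the bundle, Mgl2, Mrc1 and Itgax of that list were higher after GM-CSF (33.1-, 3.61- and 2.20-fold). Fcgr1, Csf1r, Cd14 and Ccr2 were lower (0.13-, 0.34-, 0.39- and 0.60-fold). The DC progenitor and cDC2 lists were also mixed over the bundle. Zbtb46 and Bcl11a of the former and Kmo of the latter were higher after GM-CSF (2.09-, 1.36- and 2.22-fold). Flt3, Kit, Tcf4 and Irf8 of the former were lower, as were Dtx1, Cd4, Esam, Clec4a4 and Ltb of the latter, and Cd7 was at 1.06-fold. The part of the shifts between the libraries in the family's levels was not tested.

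**Figure D3:**
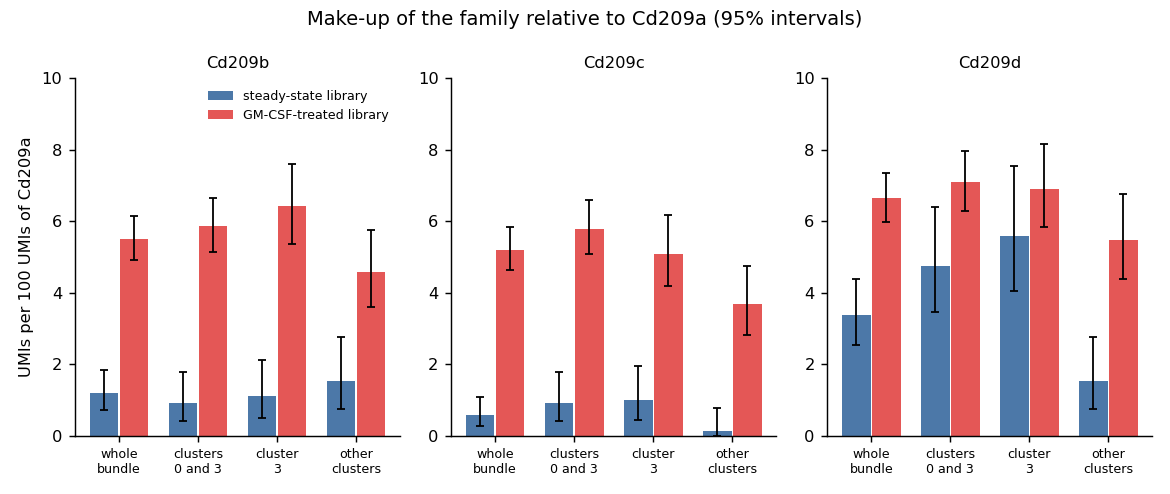
UMIs of Cd209b, Cd209c and Cd209d per 100 UMIs of Cd209a in the steady-state library (blue bars) and the GM-CSF-treated library (red bars), for the whole bundle, clusters 0 and 3 together, cluster 3 alone and all other clusters, with 95% intervals. The bars for Cd209b and Cd209c are higher after GM-CSF in each group of cells, while the intervals of Cd209d overlap in cluster 3.

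Relative to Cd209a, the make-up of the family therefore differed between the libraries. Per 100 UMIs of Cd209a, the steady-state bundle held 1.19 UMIs of Cd209b, 0.593 of Cd209c and 3.38 of Cd209d. The GM-CSF-treated bundle held 5.51 of Cd209b, 5.21 of Cd209c and 6.65 of Cd209d, so the quotients between the libraries were 4.65 (2.95 to 7.73), 8.79 (4.70 to 18.6) and 1.97 (1.48 to 2.66). Cells outside clusters 0 and 3 held 719 of the 1687 steady-state Cd209a UMIs and 1678 of the 5989 after GM-CSF, so these values also move with the mix of cells. Restricted to cluster 3, the values were 1.12 and 6.42 for Cd209b (quotient 5.75, 2.92 to 12.9) and 0.993 and 5.10 for Cd209c (5.14, 2.50 to 12.2). For Cd209d they were 5.58 and 6.92 (1.24, 0.87 to 1.79), which a quotient of 1 would also allow. In the clusters other than 0 and 3, 11 steady-state UMIs of Cd209b and 1 of Cd209c stood against 77 and 62 after GM-CSF, giving quotients of 3.0 (1.57 to 6.29) and 26.6 (4.57 to 1067). The quotient of Cd209d was 3.58 (1.90 to 7.47) there and 1.49 (1.08 to 2.10) in clusters 0 and 3 together, both above 1, unlike in cluster 3 alone.

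Among the 4 named CD115hi subsets of the GM-CSF-treated library, the minor members were highest in P-IV, the GMiDCs. Among 313 P-IV cells, Cd209d was at 26.7 CPM (60 UMIs, 11.2% of cells), Cd209b at 26.2 CPM (59 UMIs, 7.03%), Cd209c at 26.2 CPM (59 UMIs, 14.1%) and Cd209e at 2.22 CPM (5 UMIs). Thinned, the shares were 2.57%, 2.57%, 2.25% and 0%. In the 126 P-III cells, there were 2 UMIs of Cd209d, 1 of Cd209b and 3 of Cd209c, and in the 187 P-I cells 1, 2 and 3 UMIs of these genes. Cd209a was at 383 CPM in P-IV, 71.7 CPM in P-III and 32.3 CPM in P-I, and P-II held 8 cells without a member. The 50 CD115hi cells that the authors put in none of these subsets had Cd209a at 169 CPM, Cd209d at 26.8 CPM (10 UMIs in 3 cells), close to its level in P-IV, Cd209c at 13.4 CPM (5 UMIs) and Cd209b at 2.68 CPM (1 UMI). Cd209b, Cd209c and Cd209d reached 50 UMIs only through P-IV, so no count of members is given for P-IV against P-III. Its ratios were 19.4 (3.35 to 779) for Cd209b, 6.47 (2.11 to 32.3) for Cd209c, 9.87 (2.62 to 83.4) for Cd209d and 5.35 (4.05 to 7.20) for Cd209a, and 1.91% of the 6216 genes tested were at least 2-fold higher and 1.01% at least 2-fold lower. Most of the family's RNA lay outside the CD115hi gate, where 3256 of the 3940 bundle cells of this library lay. These CD115- cells held 4966 UMIs of Cd209a (223 CPM), 267 of Cd209b (12 CPM), 242 of Cd209c (10.9 CPM) and 325 of Cd209d (14.6 CPM). Of the 1304 cells with Cd209a, 1089 (83.5%) were CD115- and 172 (13.2%) P-IV. In the steady state, 245 of 262 such cells (93.5%) were CD115-. In the steady state, P-IV held 7 cells with 12 UMIs of Cd209a in 2 of them and none of the other members.

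Members were found in the same cells. In the GM-CSF-treated bundle, 91.8% of the 159 cells with Cd209b, 93.7% of the 255 with Cd209c, 92.5% of the 226 with Cd209d and all 27 with Cd209e also had Cd209a, compared with 28.9 to 32.6% of the cells without the respective member. Thinned to 1000 UMIs, 63.0, 40.9 and 52.3% of the cells with Cd209b, Cd209c and Cd209d had Cd209a, against 14.8 to 15.1% of the others. Within clusters 0 and 3, where 815 of 1180 cells had Cd209a, all 112 cells with Cd209b were among them. Cells with Cd209b had Cd209c in 25.8% and Cd209d in 27.0%, against 5.66% and 4.84% of the cells without Cd209b, and cells with Cd209e had Cd209d in 48.1%. These shares describe cells that share their library, cluster and depth, and the median depth rose from 6471 UMIs in cells without any member to 8141 in the 21 cells with 4 members.

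Fewer of the Cd209a cells had a second member in the steady state when all UMIs were used. Of the 262 cells with Cd209a, 23 had Cd209d (8.78%), 8 had Cd209b (3.05%) and 8 had Cd209c (3.05%), whereas 16.0, 11.2 and 18.3% of the 1304 cells with Cd209a had these genes after GM-CSF. Thinned to 1000 UMIs, the shares after GM-CSF were 3.85, 4.86 and 3.02%, while in the steady state Cd209d was found in 4 of 112 cells with Cd209a (3.57%, 0.982 to 8.89), Cd209c in 2 (1.79%, 0.217 to 6.30) and Cd209b in none. With 4 and 2 such cells left in the steady state, a difference was not detectable for Cd209d and Cd209c, and so few cells cannot show that there was none. Before thinning, the cells with Cd209a were deeper in the steady state (median 8292 UMIs) than after GM-CSF (6884.5). None of the 24 cells with Cd209d had Cd209b, which allows up to 12.5% of such cells. Cd209a was the sole member in 224 of 262 cells (85.5%) in the steady state and in 831 of 1304 cells (63.7%) after GM-CSF. There, 349 cells had 2 members, 103 had 3, 21 had 4 and 1 had all 5, against 36 cells with 2 and 2 cells with 3 in the steady state.

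**Figure D4:**
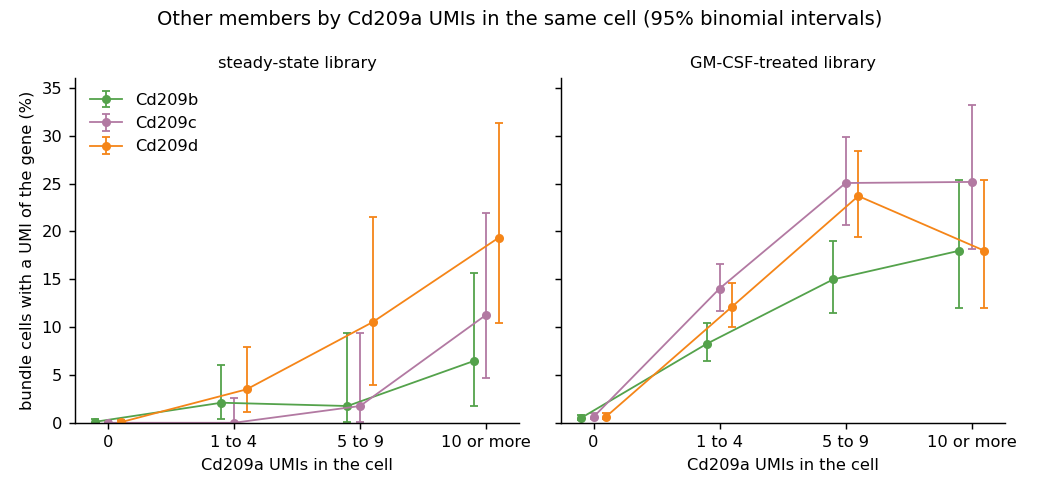
Share of bundle cells (%) with a UMI of Cd209b, Cd209c or Cd209d by the number of Cd209a UMIs in the same cell, for the steady-state library (left) and the GM-CSF-treated library (right), with 95% binomial intervals. Shares are under 1% in cells without Cd209a in both libraries and, after GM-CSF, rise with the first Cd209a UMIs, without a further rise of Cd209c and Cd209d beyond 5 to 9 UMIs.

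The shares of the minor members depended on how much Cd209a a cell had. After GM-CSF, Cd209c was found in 0.607% of cells without Cd209a, 14.0% of cells with 1 to 4 UMIs, 25.1% with 5 to 9 and 25.2% with 10 or more. For Cd209b these shares were 0.493, 8.27, 15 and 18.0%, and for Cd209d 0.645, 12.2, 23.7 and 18.0%. Counted in UMIs, the minor members did not keep pace with Cd209a. Per 100 UMIs of Cd209a, Cd209c fell from 7.67 in cells with 1 to 4 Cd209a UMIs to 4.84 and 2.41 in the next classes, Cd209b from 6.75 to 5.67 and 3.34, and Cd209d from 8.98 to 7.12 and 2.46. The classes were set by Cd209a itself, so the decline is a description. In the steady state, Cd209d was found in 3.50, 10.5 and 19.4% of the 143, 57 and 62 cells of the 3 classes with Cd209a.

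**Figure D5:**
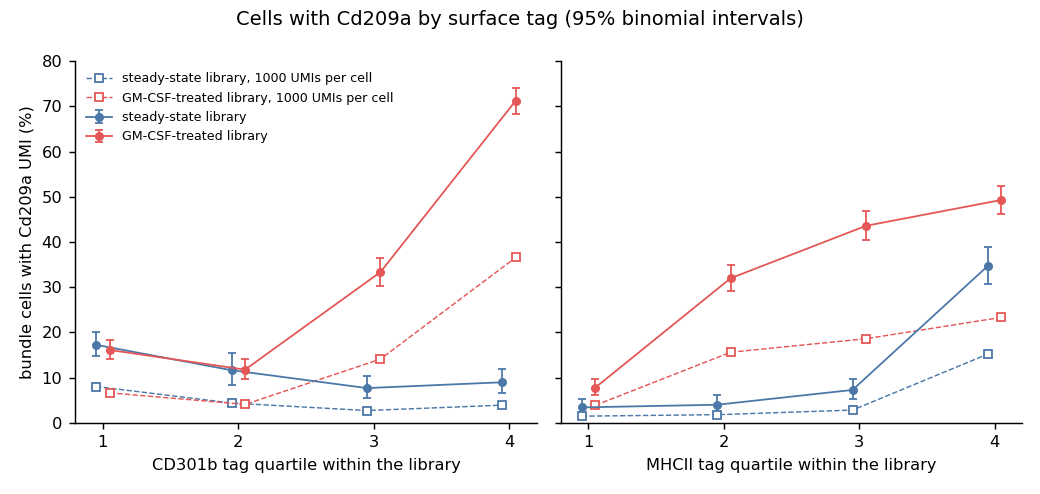
Share of bundle cells (%) with a Cd209a UMI by quartile of the CD301b tag (left) and the MHC II tag (right) within each library, with filled circles and 95% binomial intervals for all cells and open squares for cells thinned to 1000 UMIs. In the GM-CSF-treated library (red) the share climbs to 71.3% in the top CD301b quartile, while in the steady-state library (blue) it does not climb with CD301b and reaches 34.7% in the top MHC II quartile.

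The surface tag for CD301b sorted the Cd209a cells of the GM-CSF-treated library. From the lowest to the highest quartile of the tag, 16.1, 11.8, 33.3 and 71.3% of cells had Cd209a (thinned 6.63, 4.07, 14.1 and 36.6%), at 78, 54.9, 195 and 516 CPM. The minor members followed the same order, as Cd209c was found in 1.24, 0.922, 5.21 and 18.6% of cells, Cd209d in 1.68, 1.27, 4.79 and 15.3% and Cd209b in 1.33, 0.922, 4.17 and 9.78%. Cd209e was found in 2, 0, 4 and 21 cells of the quartiles. Of the cells with a member, 78.2% (Cd209a) to 92.6% (Cd209e) lay above the library's median CD301b count, compared with 49.3% of all bundle cells.

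The steady-state library gave another picture. Its CD301b counts were low, with quartile limits of 1, 3 and 9 and a maximum of 275, whereas those after GM-CSF were 8, 16 and 110 with a maximum of 4040. The shares of cells with Cd209a were 17.2, 11.6, 7.68 and 8.96% from the lowest to the highest quartile (thinned 8.02, 4.37, 2.71 and 3.90%). All tags differed in count level between the libraries, so quartiles are not the same counts, and the depth of cells rose with CD301b, from a median of 5415 UMIs to 7547 in the steady state. Even the cells of clusters 0 and 3 had a median CD301b count of 1 in the steady state, against 152 after GM-CSF. Mgl2, the RNA behind the tag, was at 6.55 CPM in the steady-state bundle and 218 CPM after GM-CSF. Unlike the tag, it went with Cd209a in both libraries. In the steady state, 22 of the 262 cells with Cd209a had Mgl2 (8.40%), against 0.214% of the cells without Cd209a, and after GM-CSF 941 of 1304 (72.2%), against 21.2%.

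Over the whole bundle, Cd209a was found in more cells with higher MHC II in both libraries. In the steady state, 3.40, 3.99, 7.26 and 34.7% of cells had Cd209a from the lowest to the highest quartile, and after GM-CSF 7.77, 32.0, 43.6 and 49.3%. Thinned, the shares were 1.46, 1.79, 2.81 and 15.2% in the steady state and 3.86, 15.6, 18.6 and 23.3% after GM-CSF. The difference between the top and the bottom quartile after GM-CSF was 41.5 percentage points, 19.5 when thinned and 15.9 with the tag as a share of all tag counts of a cell. Of the cells with Cd209a, 85.1% in the steady state and 69.9% after GM-CSF were above the library's median MHC II count. With both tags divided at the library median, Cd209a was found after GM-CSF in 8.62% of cells low in both, 24.6% of cells high in MHC II alone, 41.4% of cells high in CD301b alone and 58.5% of cells high in both. The steady-state shares for these 4 classes were 4.38, 24.1, 3.0 and 15.7%. The class high in CD301b alone was thus second only to the class high in both after GM-CSF, and the lowest of the 4 in the steady state.

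Within clusters 0 and 3 of the GM-CSF-treated library, the order by CD301b was kept. The 160 cells at or below the bundle's median CD301b count had Cd209a at 389 CPM (351 to 430), Cd209b at 12.1 CPM (6.23 to 21.1), Cd209c at 10.0 CPM (4.82 to 18.5) and Cd209d at 23.1 CPM (14.7 to 34.7). The 1020 cells above it had 558 CPM (541 to 576), 34.3 CPM (30.1 to 38.9), 34.1 CPM (29.9 to 38.7) and 40.2 CPM (35.7 to 45.2). These intervals were apart for each of the 4 genes. With MHC II, Cd209a in the same clusters was at 573 CPM (542 to 604) in the 359 cells at or below the median. In the 821 cells above it, Cd209a was at 522 CPM (503 to 541), and these intervals were barely apart. The shares of cells with Cd209a were alike, at 69.6% (64.6 to 74.4) and 68.8% (65.5 to 72.0). Cd209b was at 22.0 and 35.5 CPM, Cd209c at 27.9 and 32.5 CPM and Cd209d at 33.9 and 39.9 CPM. In the other clusters, Cd209a was at 39.9 CPM below and 168 CPM above the CD301b median. In the 102 steady-state cells of clusters 0 and 3, Cd209a was not lower with more CD301b, at 1074 CPM (997 to 1156) in 74 of the 83 cells at or below the median and 1296 CPM (1142 to 1465) in all 19 cells above it. The 102 cells had all their 46 UMIs of Cd209d in the 83 cells at or below the median (69.3 CPM, 50.7 to 92.5), and the 19 cells above it had none, which allows up to 15.2 CPM.

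Genes with profiles most like those of the members were sought over 20 groups of cluster and library with at least 50 cells, by Pearson's r of log2(CPM + 1) among 9092 genes with at least 200 UMIs. For Cd209a, Kmo (0.90), which encodes kynurenine 3-monooxygenase, Ust (0.89) and Trappc5 (0.88) came first, followed by Rnf150, Dopey1, Klrd1, Zbtb46, Irf2bp2, Rbpj and Tmem8. Zbtb46 encodes a transcription factor of conventional DCs and Rbpj the effector of Notch signalling. Cd209b, Cd209c and Cd209d ranked 22nd (0.81), 54th (0.77) and 96th (0.74) for Cd209a, and Mgl2 238th (0.65). For Cd209b, the first genes were Sept3 (0.90), Fgfr1, Nop16 and Cd209c (0.89), for Cd209c Dapk1 (0.92), Hepacam2 and Ctnna1, with Cd209b at rank 5, and for Cd209d Cd209b (0.85), Zbtb25 and Ctnna1. Cd209b and Cd209c had 4 of their first 10 genes in common, Cd209a and each of the others 1 of 10. Of the first 10 genes for Cd209a, 8 were kept with Spearman's rho and 7 with log2(CPM + 10). With groups of at least 20 cells 4 were kept, and 0 in the GM-CSF-treated library alone, so the list depends on the groups used. The groups share libraries and depth, and these are descriptions.

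Other genes near the members did not all share their place. Of 44 annotated genes within 200 kb of a member, 25 had a UMI in the count table. After GM-CSF, the lectin gene Clec4g was higher in clusters 0 and 3 than in the other clusters (8.48-fold, 5.17 to 14.5), as was Trappc5 (1.75-fold, 1.62 to 1.89), whereas Elavl1 was equal (1.01-fold, 0.92 to 1.10) and Mcemp1 lower (0.44-fold, 0.37 to 0.51).

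Among other lectins of myeloid cells, a list of 26 genes that are mostly C-type lectins, 24 were in the count table. In the bundle, 20 had at least 50 UMIs, of which 8 were at least 2-fold higher and 7 at least 2-fold lower after GM-CSF. Over all genes tested, 8.66% were at least 2-fold higher and 9.46% at least 2-fold lower. The median log2 fold was 0.12 against -0.06 over all genes tested. Some passed the minimum mainly through 1 library, such as Klrb1b (32 steady-state and 718 GM-CSF UMIs) and Siglec1 (84 and 12). These folds are over the whole bundle, whose mix of clusters differed between the libraries. The genes that were higher included Mgl2 (33.1-fold), Klrb1b (12.2-fold), Clec4b1 (6.65-fold), Clec4n (6.09-fold) and Mrc1 (3.61-fold), the last of which encodes the mannose receptor. Lower were among others Clec4d (0.12-fold) and Clec4e (0.11-fold), receptors for mycobacterial glycolipids, and Siglec1 (0.08-fold), a marker of marginal metallophilic macrophages. Of the 4 genes for partner molecules bound by DC-SIGN on other cells, 3 were at least 2-fold lower, namely Ceacam1 (0.17-fold), Icam2 (0.47-fold) and Itgam (0.48-fold). Of all genes tested in the bundle, 9.46% were at least 2-fold lower.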

How the data were processed

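CITE-seq libraries of 1 steady-state and 1 GM-CSF-treated group were analysed. According to the methods of the study, the authors aligned reads to mm10 with Cell Ranger 3.0.2, counted tags with CITE-seq-Count and clustered cells with Seurat 3.6.0, with limits of 200 and 5000 genes and of 15% mitochondrial UMIs per cell. The annotation used for counting is not given in the sources used here. The deposited values are raw UMI counts per gene and cell, raw tag counts per cell and cell tables. The cell tables hold condition, cell type, cluster, subset and the percent of mitochondrial UMIs, and the condition gave the library.

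A gene's UMIs from all cells in a group were pooled and scaled by the group's total (CPM) in Python 3.11.15 with scipy 1.17.1, numpy 2.4.6 and pandas 2.3.3. Levels have exact Poisson intervals, shares Clopper-Pearson intervals, and ratios of 2 levels or of UMIs per 100 of Cd209a exact conditional intervals, all at 95%. Limits for a count of 0 are 3 counts. UMIs of 1 cell are not independent, and with 1 library per group no p-value was computed. The 2-fold rule used the CPM ratio with 0.5 counts added and genes with 50 or more UMIs in the 2 groups together. For shares at equal depth, each cell was thinned to 1000 UMIs (seed 20), which left out 14 steady-state and 61 GM-CSF-treated bundle cells. Scrublet in scanpy 1.11.5 called 141 and 186 doublets, 2.81% of cells, which were kept and left out in an alternative. 8 barcodes were in both libraries. The sums, intervals and calls were tested on simulated data. The genes named are the 7 members, Mgl2 and H2-Aa, genes of the lists that bear on a member, annotated genes within 200 kb of a member and, from the 10 most like each member by Pearson's r, the first ones. Members and lists were chosen with earlier results of these data known. The results of 1 gene list are not reported here. Alternatives were thinning, at least 2 UMIs, no doublets, a 10% mitochondrial limit, leaving out the top cell or the shared barcodes, means of per-cell shares, clusters weighted alike, tags as shares of tag counts, and other settings of the likeness; the weighting, the shared barcodes and the settings of the UMIs per 100 of Cd209a were chosen after seeing the data. Sequences came from RefSeq and positions from GENCODE, both for GRCm38.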

Additional observations from a re-analysis of the deposited data

Results flagged for a closer look

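The share of cells with Cd209a differed between the top and the bottom CD301b quartile by 55.2 percentage points in the GM-CSF-treated library and by -8.28 in the steady-state library, that is in opposite directions. The difference between the libraries was not tested, since each is 1 library, and the CD301b quartiles hold different tag counts in the 2 libraries.

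The ratio of the Cd209a level after GM-CSF to that in the steady state was 11.1 in cluster 8 and 0.152 in cluster 6, the highest and the lowest of the clusters compared. Each ratio rests on only 4 UMIs in 1 library, the steady state for cluster 8 and GM-CSF for cluster 6. The difference was not tested. The marker sums that moved in these clusters are given above with the ratios.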

How the results depend on the processing

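Of 104 alternative values, 66 stayed within the counting interval or, for numbers of genes, near the reported number, 37 moved and 1 reversed. The cause was not tested except where a value below shows it. No paired analysis was possible because each condition is 1 library. Giving clusters equal weights in both libraries, an alternative chosen after seeing the data, turned the Cd209a ratio from 1.96 to 0.549 and moved those of Cd209b, Cd209c and Cd209d to 3.45, 4.28 and 1.37. The 14 steady-state cells of cluster 0 enter this weighting with the weight of the whole cluster. The Cd209a ratio was 2.46 at 1000 UMIs per cell and 2.40 as a mean of per-cell shares. At 1000 UMIs the share of cells with Cd209a was 40.8% and 33.4% in MoMacDC_c2 (steady state and GM-CSF), 30.1% in cluster 0 after GM-CSF, and 42.4% and 53.4% in cluster 3 (GM-CSF and steady state), and with at least 2 UMIs 53.6% in cluster 0 and 68.0% in cluster 3 after GM-CSF. The difference between top and bottom CD301b quartile was 48.9 points with shares of tag counts, 29.96 thinned and 51.2 with 2 UMIs after GM-CSF, and -13.3 with shares of tag counts and -4.11 thinned in the steady state. For MHC II it was 15.9, 19.5 and 34.2 after GM-CSF, and 13.7 thinned and 23.2 with 2 UMIs in the steady state. Of the cells with Cd209a after GM-CSF, 4.86, 3.02 and 3.85% had Cd209b, Cd209c and Cd209d when thinned. The quotient per 100 Cd209a UMIs became 26.6 for Cd209c and 3.58 for Cd209d outside clusters 0 and 3, and 1.24 for Cd209d in cluster 3. Of the first 10 genes most like Cd209a, 4 were kept with groups of at least 20 cells and 0 in the GM-CSF-treated library alone. Thinned ratios of Cd209b and Cd209e could not be computed, as thinned steady-state cells had no UMI of these genes.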
